A study of Homo sapiens with 2 samples.

Results

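The NF-kB subunits and their feedback inhibitors were described in U87MG, an established human glioblastoma line, grown for a week as glioma spheres under stem cell culture conditions. The set comprised the 10 genes named RELA, RELB, REL, NFKB1, NFKB2, NFKBIA, NFKBIB, NFKBIE, NFKBIZ and TNFAIP3 out of 58735 genes in the table. The genes were taken by symbol, and the set was chosen with earlier results of these data known. The comparison was between 2 groups of 1 library each: cells infected with a lentivirus carrying an shRNA against TRIP13, and cells infected with the pGIPZ control lentivirus. Both were selected with puromycin as stable clones, and the labels do not say how many clones made up a library. TRIP13 is an AAA+ ATPase of the spindle checkpoint. Its own level was 23.1 FPKM in the library whose title carries shTRIP13 and 11.9 FPKM in the shcon library, a ratio of 1.95 (95% counting interval 1.79 to 2.12), which goes against that label. The libraries are therefore called, after their titles, the library labelled shTRIP13 and the shcon (control) library, and each direction below is one between libraries as labelled.

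NF-kB is a family of dimeric transcription factors built from subunits that share a Rel homology domain. In resting cells the dimers are held in the cytoplasm by IkB proteins. Signals from cytokine receptors activate the IkB kinase, the IkB proteins are degraded, and the freed dimers enter the nucleus, where they switch on inflammatory and survival genes. Several inhibitors of the pathway are themselves NF-kB target genes, which makes a negative feedback loop, and NF-kB activity is well known in glioblastoma.

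Values are FPKM as the authors deposited them, a level per kilobase of gene length that allows comparison between genes. Behind them lay 19903836 reads in the library labelled shTRIP13 and 18871063 in the shcon library, both divided by 1 common total, so a ratio of FPKM carries the depth ratio of 1.05. With 1 library per group there was no replicate error and no test. Intervals are 95% intervals of counting error only, and each difference is one between these libraries, not shown for the conditions. The log2 ratio is log2((FPKM + 1) in the library labelled shTRIP13 / (FPKM + 1) in the shcon library), which understates differences of low genes, and a log2 ratio of -1 or less or of 1 or more is called at least 2-fold. Of 10 glioma line and sphere markers, 9 had a log2 ratio below 0, some of them on few reads or at nearly equal levels. Only 6 of the 10 averaged at least 1 FPKM over the libraries. All 6 were below 0, beside 39.6% of the protein-coding genes that reached this average. CHI3L1 and OLIG2 were the 2 at least 2-fold lower, against 4.19% of those protein-coding genes. OLIG2 reached the average only through the shcon library. VIM had 427 FPKM in the library labelled shTRIP13 and 442 FPKM in the shcon library, and CD44 had 112 FPKM in the library labelled shTRIP13 and 115 FPKM in the shcon library. CHI3L1, a secreted glycoprotein abundant in mesenchymal glioblastoma, had 57.8 FPKM in the library labelled shTRIP13 and 670 FPKM in the shcon library. NES had 2.21 FPKM and OLIG2 0.339 FPKM in the library labelled shTRIP13, against 5.23 and 2.72 FPKM in the shcon library. SOX2 and PROM1, which often mark glioma stem cells, were almost absent, with 1 read each in the library labelled shTRIP13 and with 2 and 5 reads in the shcon library. In bulk RNA, fewer cells of a kind and less RNA per cell cannot be told apart.

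The set was lower as a whole in the library labelled shTRIP13, and RELA and NFKBIB were its exceptions. The log2 ratio was below 0 for 8 of 10 members and above 0 for 2, beside 39.6% below 0 among all tested genes. NFKBIZ, TNFAIP3, NFKB2 and NFKBIA were at least 2-fold lower, 4 of the 9 members with a mean FPKM of 1 or more, while 4.19% of 10671 protein-coding genes past the same filter were at least 2-fold lower. None of the 9 was at least 2-fold higher, against 2.17% of all tested genes. The median log2 ratio was -0.67 over the 9 members and -0.63 over all 10, beside 0.12 over all tested genes. REL, with a mean of 0.862 FPKM, was the member under the filter. As the set was chosen with earlier results of these data known, the counts of its members are not independent evidence. Of all called genes 34.2% were higher. That split depended on scaling and was 22.5% after rescaling to TPM and 19.7% with the median ratio set to 1, settings that each moved the median over all tested genes by -0.12 on the log2 scale. Under either setting 4 members were at least 2-fold lower.

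**Figure D1:**
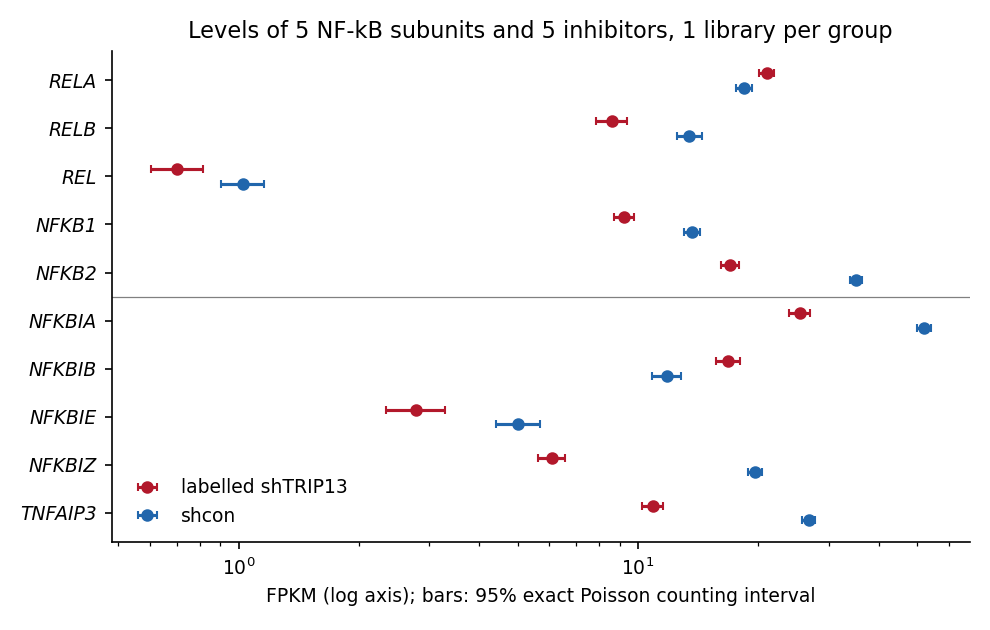
FPKM of the 10 members on a log axis, subunits above the grey line and inhibitors below it, in the library labelled shTRIP13 (red) and in the shcon library (blue), with 95% exact Poisson counting intervals and 1 library per group. NFKBIA is the highest member in both, at 25.4 FPKM in the library labelled shTRIP13 and 51.9 FPKM in the shcon library, and RELA and NFKBIB are the members whose red point lies to the right of the blue one.

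Among the inhibitors, NFKBIA encodes IkB alpha, which holds dimers in the cytoplasm, is degraded on signalling and is made anew once NF-kB is active. The gene (ENSG00000100906) lies on the minus strand at chr14:35401511-35404749 of hg38. It had 25.4 FPKM (1167 reads) in the library labelled shTRIP13 and 51.9 FPKM (2388 reads) in the shcon library, a ratio of 0.489 (0.455 to 0.524) and a log2 ratio of -1.005. It was the highest of the 10 in both libraries, above 90.8% of protein-coding genes in the library labelled shTRIP13 and above 96.7% in the shcon library. The bases before its start are shown because NFKBIA is the textbook case of an inhibitor that NF-kB itself induces. They are the 250 bases before the RefSeq start at chr14:35404750-35404999 (GRCh38.p14, minus strand), with the match to the kB consensus motif in capitals.

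NFKBIA: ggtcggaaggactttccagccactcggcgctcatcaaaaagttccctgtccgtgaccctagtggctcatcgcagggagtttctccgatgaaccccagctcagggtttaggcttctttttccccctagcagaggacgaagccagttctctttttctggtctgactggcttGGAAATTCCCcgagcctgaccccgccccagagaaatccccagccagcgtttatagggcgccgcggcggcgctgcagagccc

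The kB consensus was searched on both strands as 3 G, a purine, 2 of any base, 2 pyrimidines and 2 C. Windows ran from 250 bases before to 50 bases after each RefSeq start, and 8 of the 10 members had at least 1 such window. The motif can overlap its own reverse complement, and overlapping matches were counted as 1 stretch. At least 1 match was found for 7 of these 8 members, all but RELA, and in 9 of their 14 windows, whereas 11.3% of 35116 RefSeq windows hold one. A match is a description of the letters and does not show that a factor binds there. Stretches of 30 bases around matches of the other members are given next, so that the sites can be set beside the ratios below. They are 1 for each member, and NFKB2, NFKBIZ and NFKBIB held further stretches that are not printed.

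TNFAIP3 (chr6:137867188-137867217, plus strand): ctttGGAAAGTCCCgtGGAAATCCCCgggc
NFKBIZ (chr3:101827757-101827786, plus strand): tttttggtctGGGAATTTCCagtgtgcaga
NFKB1 (chr4:102501300-102501329, plus strand): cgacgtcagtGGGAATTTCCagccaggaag
REL (chr2:60881518-60881547, plus strand): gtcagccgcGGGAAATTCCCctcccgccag
NFKBIB (chr19:38899932-38899961, plus strand): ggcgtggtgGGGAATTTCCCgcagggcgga
NFKB2 (chr10:102395674-102395703, plus strand): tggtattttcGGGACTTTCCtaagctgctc

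Each stretch is written 5′ to 3′ on the strand of its gene, with the matching bases in capitals, in GRCh38.p14 coordinates. TNFAIP3 holds a pair of matches 2 bases apart, both on the other strand, at positions -67 to -46 relative to the RefSeq start, where -1 is the last base before it. NFKB1 holds its match at -49 to -40 and REL at -47 to -37. The core GGGAATTTCC, read on either strand, occurs in windows of NFKBIA, NFKBIZ, NFKB1, REL and NFKBIB, 5 members, and in 0.145% of all windows. It was picked out because it was the most frequent core among the members. Of the 7 members with a match, NFKBIB had a log2 ratio above 0 and the others one below 0, and RELA, without a match, had one above 0. No test was made of this. The core of NFKBIB lies before its second RefSeq start, and its first window held no match. NFKB2 has 3 RefSeq windows, and 2 of them held matches.

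TNFAIP3 encodes a ubiquitin-editing enzyme that removes the ubiquitin chains on which the IkB kinase is activated. At chr6:137867188-137883312 it had 10.9 FPKM (1066 reads) in the library labelled shTRIP13 and 26.8 FPKM (2619 reads) in the shcon library. The ratio was 0.407 (0.379 to 0.437) and the log2 ratio -1.22, with 2.72% of tested genes lower. An antisense RNA, AL357060.1, shares 95 exon bases (1.88%) with TNFAIP3, and its start lies 1045 bases from that of TNFAIP3. It had 28 reads in the library labelled shTRIP13 and 115 in the shcon library, a ratio of 0.243 (0.155 to 0.371), so it was lower too. The strand setting of the counting is not given in the sources used here, and reads in shared bases cannot be assigned to a strand.

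NFKBIZ encodes IkB zeta, a nuclear member of the IkB family that acts as a co-regulator of a subset of NF-kB targets, IL6 among them, and not as a cytoplasmic anchor. It had the lowest log2 ratio of the set, -1.55, and 1.46% of tested genes were lower. Its level was 6.08 FPKM (695 reads) in the library labelled shTRIP13 and 19.7 FPKM (2248 reads) in the shcon library, 3.23-fold lower (2.97 to 3.53). The gene (chr3:101827991-101861022) stood above 68.6% of protein-coding genes in the library labelled shTRIP13 and above 89.1% in the shcon library. This was the widest shift of place within the table among the 10 members.

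NFKBIE encodes IkB epsilon, another cytoplasmic inhibitor that is induced by NF-kB. It had 2.78 FPKM (139 reads) in the library labelled shTRIP13 and 5.02 FPKM (251 reads) in the shcon library. The ratio was 0.554 (0.447 to 0.684), an interval that includes 0.5, and with a log2 ratio of -0.67 it was the member nearest to the size rule from outside. NFKBIE was the least abundant inhibitor in both libraries.

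NFKBIB encodes IkB beta, the cytoplasmic inhibitor known for little induction by NF-kB. It went the other way. NFKBIB had 16.8 FPKM (757 reads) in the library labelled shTRIP13 and 11.8 FPKM (531 reads) in the shcon library, a ratio of 1.43 (1.27 to 1.60) and a log2 ratio of 0.48. Dividing each library by its own total gave a ratio of 1.35 (1.21 to 1.51), still above 1. NFKBIB (chr19:38899700-38908893) starts 162 bases from SIRT2 on the other strand, a deacetylase gene that shares 40 exon bases (1.72%) with it. SIRT2 had 9.34 FPKM in the library labelled shTRIP13 and 6.39 FPKM in the shcon library, a ratio of 1.46 (1.33 to 1.60), close to that of NFKBIB.

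**Figure D2:**
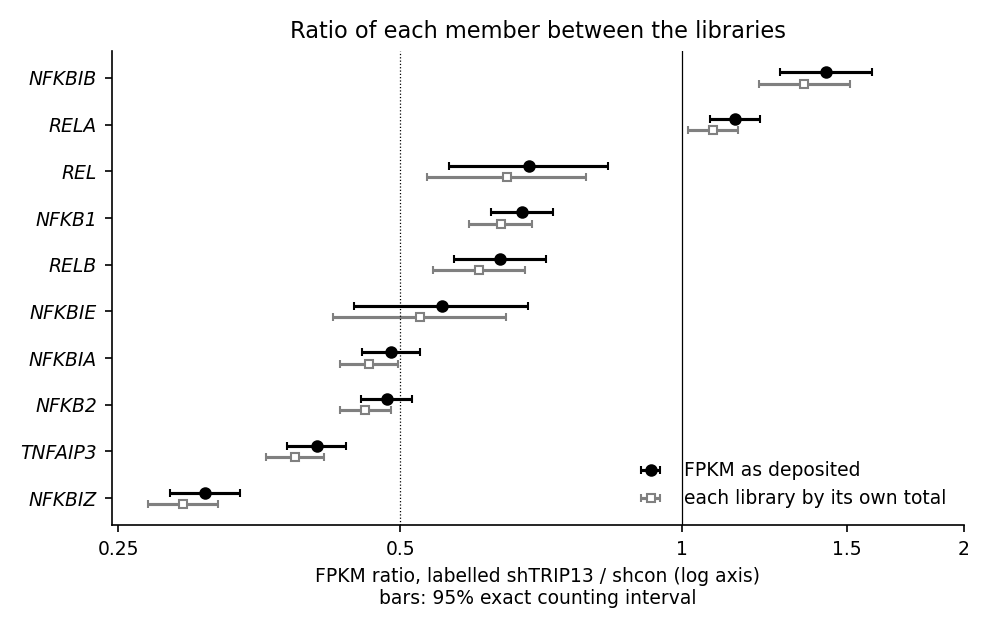
Ratio of FPKM in the library labelled shTRIP13 over the shcon library for each member on a log axis, as deposited (filled circles) and with each library divided by its own total (open squares), with 95% exact counting intervals. The solid line marks a ratio of 1 and the dotted line 0.5, and the members run from NFKBIB at 1.43 to NFKBIZ at 0.309.

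Of the subunits, RELA, RELB and REL carry a transactivation domain, whereas NFKB1 and NFKB2 encode precursors that act as IkB-like inhibitors until they are processed into DNA-binding subunits. RELA, the main activating subunit of the canonical pathway, differed least. Its level was 21.0 FPKM (2223 reads) in the library labelled shTRIP13 and 18.4 FPKM (1951 reads) in the shcon library, a ratio of 1.14 (1.07 to 1.21). With each library divided by its own total the ratio was 1.08 (1.02 to 1.15). The log2 ratio of 0.18 is near the middle of the table, with 55.6% of tested genes lower, with values of 0.05 to 0.19 under the alternatives. RELA (chr11:65653596-65663094) starts 8 bases from a lincRNA on the other strand, AP001362.2, which had 29 reads in the library labelled shTRIP13 and 59 in the shcon library, a ratio of 0.492 (0.304 to 0.779).

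NFKB2 encodes the precursor of the non-canonical pathway and is an NF-kB target. At chr10:102394110-102402529 it had 17.0 FPKM (1475 reads) in the library labelled shTRIP13 and 35.1 FPKM (3049 reads) in the shcon library. The ratio was 0.484 (0.454 to 0.515) and the log2 ratio -1.006. NFKB2 and NFKBIA were the members just inside the size rule. As deposited, the upper ends of both intervals lay above 0.5, so counting error alone could place either on the other side. With each library divided by its own total, the ratios were 0.459 (0.431 to 0.488) for NFKB2 and 0.463 (0.432 to 0.497) for NFKBIA. Both intervals then lay below 0.5.

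RELB, the partner of the processed NFKB2 product, had 8.60 FPKM (506 reads) in the library labelled shTRIP13 and 13.4 FPKM (791 reads) in the shcon library, a ratio of 0.640 (0.571 to 0.716). NFKB1, the partner of RELA in the common canonical dimer, had 9.22 FPKM (1118 reads) in the library labelled shTRIP13 and 13.7 FPKM (1656 reads) in the shcon library, a ratio of 0.675 (0.625 to 0.729). The log2 ratio of RELB was -0.59, with 10.1% of tested genes lower, and that of NFKB1 -0.52, with 11.7% lower.

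REL encodes c-Rel, a subunit best known from lymphocytes. It was the least abundant member, with 0.701 FPKM (179 reads) in the library labelled shTRIP13 and 1.02 FPKM (261 reads) in the shcon library, a ratio of 0.686 (0.564 to 0.833). Of the 13170 exon bases of REL, 5702 (43.3%) are shared with AC010733.2, a noncoding gene annotated on the same strand over its end, which had 0 reads in both libraries. How the authors' counting treated reads in shared exons is not given in the sources used here, so the level of REL and its place in the order are uncertain.

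The order of the levels differed between the libraries. In the library labelled shTRIP13 it was NFKBIA, RELA, NFKB2, NFKBIB, TNFAIP3, NFKB1, RELB, NFKBIZ, NFKBIE and REL. In the shcon library it was NFKBIA, NFKB2, TNFAIP3, NFKBIZ, RELA, NFKB1, RELB, NFKBIB, NFKBIE and REL. Counting intervals of the FPKM overlapped for the neighbours NFKB2 and NFKBIB and for NFKB1 and RELB in the library labelled shTRIP13. In the shcon library they overlapped for NFKBIZ and RELA, NFKB1 and RELB, and RELB and NFKBIB. RELA thus stood at place 2 in the library labelled shTRIP13 and at place 5 in the shcon library, although its own level differed least.

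The make-up of the subunit transcripts, which does not depend on the scaling of a library, differed accordingly. RELA made up 37.2% of the summed FPKM of the 5 subunits in the library labelled shTRIP13 and 22.6% in the shcon library. NFKB2 made up 30.05% in the library labelled shTRIP13 and 43.0% in the shcon library. NFKB1, RELB and REL made up 16.3%, 15.2% and 1.24% in the library labelled shTRIP13, close to their 16.7%, 16.5% and 1.25% in the shcon library. Shares of reads, which weight long transcripts more, gave RELB 9.20% in the library labelled shTRIP13 and 10.3% in the shcon library, and REL 3.25% in the library labelled shTRIP13 and 3.39% in the shcon library. RELA made up 40.4% of the reads in the library labelled shTRIP13 and 25.3% in the shcon library. The sum itself was 56.5 FPKM in the library labelled shTRIP13 and 81.6 FPKM in the shcon library.

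Among the 3 cytoplasmic inhibitors, NFKBIA made up 56.4% of the summed FPKM in the library labelled shTRIP13 and 75.5% in the shcon library. NFKBIB made up 37.4% in the library labelled shTRIP13 and 17.2% in the shcon library. The level of NFKBIA over that of NFKBIB was 1.51 in the library labelled shTRIP13 and 4.40 in the shcon library. The summed FPKM of the 3 inhibitors over that of RELA, RELB and REL was 1.48 in the library labelled shTRIP13 and 2.09 in the shcon library. For NFKB1 and NFKB2 over the same 3 subunits it was 0.865 in the library labelled shTRIP13 and 1.48 in the shcon library. These are ratios of transcripts and say nothing of protein.

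**Figure D3:**
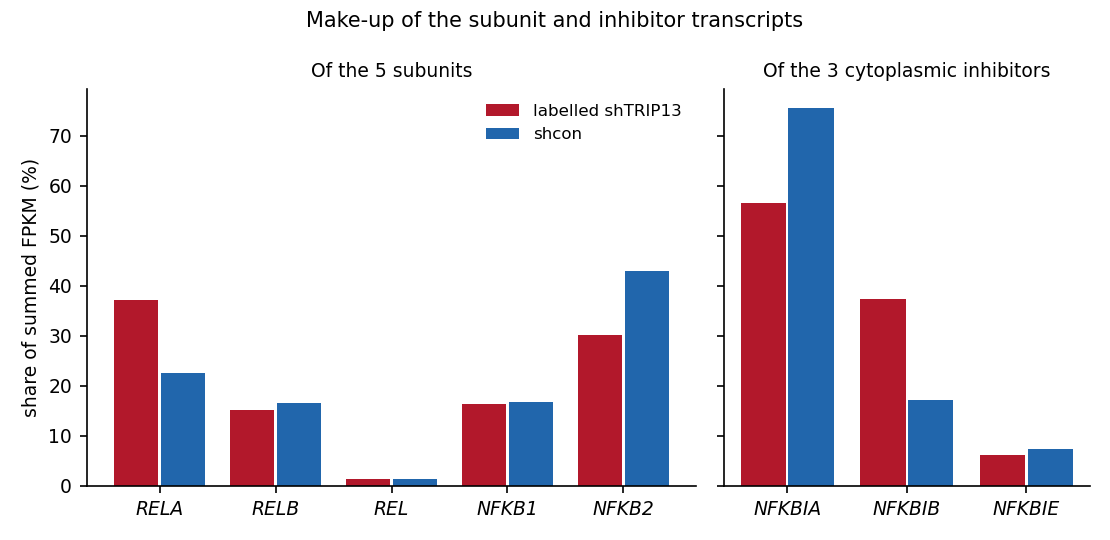
Share of the summed FPKM taken by each of the 5 subunits (left) and by each of the 3 cytoplasmic inhibitors (right), in the library labelled shTRIP13 (red bars) and in the shcon library (blue bars), 1 library per group and no error bars. RELA and NFKBIB take larger shares in the library labelled shTRIP13, 37.2% and 37.4%, than in the shcon library, 22.6% and 17.2%.

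Set against RELA within each library, 8 of the other 9 members were lower in the library labelled shTRIP13. This follows from the ratios above, where only NFKBIB had a higher ratio than RELA. The odds ratios restate the same reads without the scaling of a library. The level of NFKBIZ over that of RELA was 0.289 in the library labelled shTRIP13 and 1.07 in the shcon library, an exact conditional odds ratio of the reads of 0.271 (0.244 to 0.302). For TNFAIP3 the odds ratio was 0.357 (0.325 to 0.393), for NFKB2 0.425 (0.389 to 0.464) and for NFKBIA 0.429 (0.390 to 0.471). NFKBIE, RELB, NFKB1 and REL had odds ratios of 0.486, 0.561, 0.593 and 0.602, with upper ends of at most 0.738. NFKBIB was the 1 member higher relative to RELA, with an odds ratio of 1.25 (1.10 to 1.42).

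Around the members, the pathway was described from lists of upstream and downstream genes that were chosen with earlier results of these data known. Of 12 ligands listed, 10 had a log2 ratio below 0 and none one above 0, with a median of -0.42. A mean of 1 FPKM or more was reached by 4, of which IL33 and TNFSF14 passed only through their level in the shcon library. All 4 were at least 2-fold lower, and 2 with a pseudocount of 5. Over all tested genes 39.6% had a log2 ratio below 0 and 4.19% were at least 2-fold lower. Of the 12 ligands, 10 were under 1 FPKM in the library labelled shTRIP13 and 8 in the shcon library, some on few reads. TNFSF14, a TNF family ligand of the lymphotoxin beta receptor, had 0.356 FPKM (33 reads) in the library labelled shTRIP13 and 4.19 FPKM (388 reads) in the shcon library. IL1A, an interleukin 1 cytokine, had 1.21 FPKM in the library labelled shTRIP13 and 4.93 FPKM in the shcon library. IL1B and IL33, also of the interleukin 1 family, had log2 ratios of -6.70 and -3.87. TNF itself had 1 read in the library labelled shTRIP13 and 11 in the shcon library.

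Of 24 receptors and adaptors 21 were tested, with 16 log2 ratios above 0, 5 below and a median of 0.24. Of the 16, 1 passed the filter only through its level in the library labelled shTRIP13. Among all tested genes 60.2% were above 0. TNFRSF12A, the receptor of the cytokine TWEAK, had 155 FPKM in the library labelled shTRIP13 and 75.3 FPKM in the shcon library. Its log2 ratio of 1.03 made it the 1 receptor at least 2-fold higher, and under TPM, own totals, totals without mitochondrial and top genes, the median ratio set to 1 or a pseudocount of 5 there was none. BIRC2, a ubiquitin ligase of the TNF receptor complex, had 15.2 FPKM in the library labelled shTRIP13 and 8.17 FPKM in the shcon library. From recovered reads 2 genes of the list were at least 2-fold higher. TRAF1 and IRAK2 were the 2 adaptors at least 2-fold lower. That count was 1 at a mean FPKM of 5 or more, 0 with a pseudocount of 5 and 3 under TPM. TRAF1, which is itself an NF-kB target, had 2.34 FPKM in the library labelled shTRIP13 and 6.97 FPKM in the shcon library. IRAK2, a kinase of the interleukin 1 receptor complex, had 10.1 FPKM in the library labelled shTRIP13 and 24.1 FPKM in the shcon library.

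The kinases and ubiquitin ligases that turn the pathway on showed small differences. All 20 were tested, none was at least 2-fold higher or lower, and the median log2 ratio was 0.04, which ranged from -0.07 to 0.08 over the alternatives. MAP3K14, the kinase that starts the non-canonical pathway by driving NFKB2 processing, had the highest log2 ratio, 0.85, at 4.10 FPKM in the library labelled shTRIP13 and 1.83 FPKM in the shcon library, a ratio of FPKM of 2.24 (1.90 to 2.66). With a pseudocount of 0.1 or from recovered reads, 1 gene of the list was at least 2-fold higher. UBE2N, a ubiquitin-conjugating enzyme, had a log2 ratio of 0.49. Its cofactor UBE2V1 and the kinase adaptor TAB1 had the lowest, -0.61 and -0.39.

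Of 24 other negative regulators 22 were tested, 2 of them passing only through the shcon library. Of the 22, 14 had a log2 ratio below 0 and 8 one above 0, with a median of -0.11. There were 3 at least 2-fold lower and none at least 2-fold higher. The shares over all tested genes were 4.19% lower and 2.17% higher, and their median log2 ratio was 0.12. TNIP3 and TNIP1 encode proteins that bind TNFAIP3. TNIP3 had 0.835 FPKM (61 reads) in the library labelled shTRIP13 and 4.92 FPKM (359 reads) in the shcon library. TNIP1, which lies outside the naming rule and was named after its values were seen because it completes the count of 3, had 23.7 FPKM in the library labelled shTRIP13 and 58.3 FPKM in the shcon library. ZC3H12A, an RNase that degrades cytokine transcripts, had 14.2 FPKM in the library labelled shTRIP13 and 40.2 FPKM in the shcon library. At the other end, NKIRAS2, a small GTPase that slows IkB degradation, and COMMD1, which promotes the turnover of RELA, had log2 ratios of 0.52 and 0.36.

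Partners of NF-kB in the nucleus, such as histone acetyltransferases and deacetylases, had a median log2 ratio of 0.19 over 12 tested genes. The median over all tested genes was 0.12. None of the 12 was at least 2-fold higher or lower, against 2.17% and 4.19% of all tested genes. The chromatin protein HMGB1 had the highest value, 0.55, and the acetyltransferase EP300 and the deacetylase HDAC3 the lowest, -0.51 and -0.26.

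Textbook NF-kB target genes had lower log2 ratios than most members. Of 36 listed genes 29 were tested, with 21 at least 2-fold lower, none at least 2-fold higher and a median of -1.74 on the log2 scale. Among all tested genes 4.19% were at least 2-fold lower. Of the 21, 5 passed the filter only through the shcon library, and the other 16 had 1 FPKM or more in both. Over all 36 the median was -1.34, with 28 below 0. The count was 12 at a mean FPKM of 5 or more and 15 with a pseudocount of 5, where the median was -1.01. PTGS2, the inducible cyclooxygenase, had the second lowest log2 ratio after IL1B, -3.79. Of the tested targets 7 had a log2 ratio above 0. CCND1, cyclin D1, had 275 FPKM in the library labelled shTRIP13 and 142 FPKM in the shcon library, and CD83, a surface protein of activated immune cells, had 3.59 FPKM in the library labelled shTRIP13 and 1.58 FPKM in the shcon library. This list was put together from genes whose lower level was partly known, so its count is not independent evidence. It shares IL1A, IL1B and TNF with the ligands, and TRAF1 and BIRC3 with the receptors and adaptors.

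**Figure D4:**
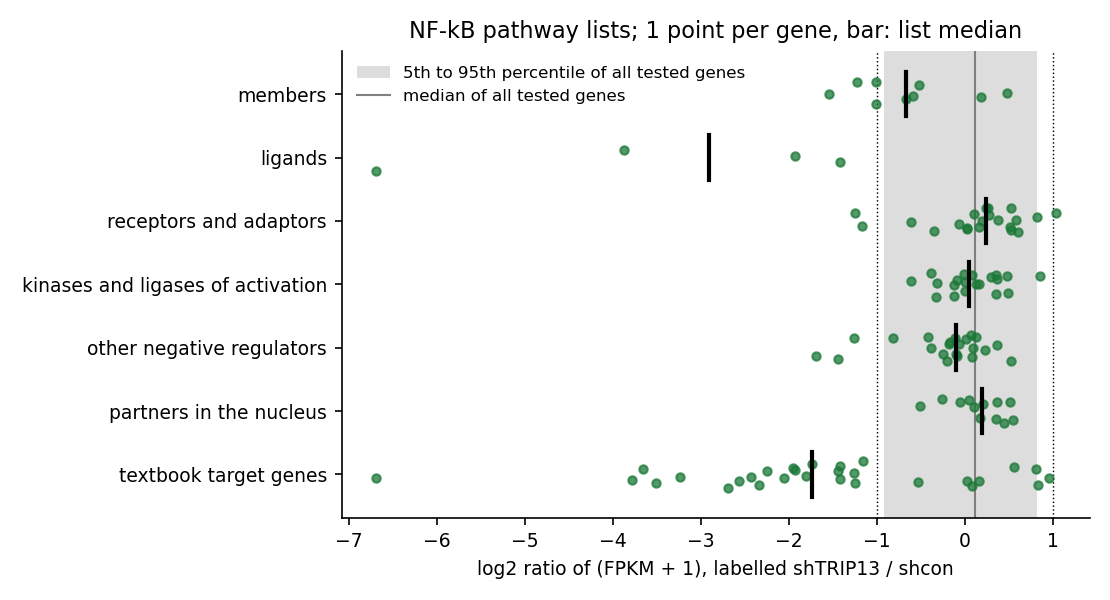
Log2 ratio of (FPKM + 1), library labelled shTRIP13 over shcon library, for each tested gene of the set (top row) and of 6 pathway lists, with 1 point per gene and a black bar at each median. IL1A, IL1B, TRAF1 and BIRC3 are each on 2 lists and appear in both rows. The grey band runs from -0.92 to 0.82, the 5th to the 95th percentile of all tested genes. The median of the members, -0.67, lies between that of the kinases and ligases of activation, 0.04, and that of the target genes, -1.74.

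Genes used as markers of other cell types were lower in sum in the library labelled shTRIP13, and some were as abundant as members of the set. Of 10 myeloid markers, 9 were under 1 FPKM in the library labelled shTRIP13 and 8 in the shcon library, with a summed level of 4.52 FPKM in the library labelled shTRIP13 and 8.998 FPKM in the shcon library. TMEM119 had 0.696 FPKM in the library labelled shTRIP13 and 4.40 FPKM in the shcon library, whereas TYROBP, AIF1 and P2RY12 had 0 reads in both. CSF1R had 3.31 FPKM in the library labelled shTRIP13 and 3.75 FPKM in the shcon library, a ratio of 0.882 (0.759 to 1.03). PTPRC, the pan-leukocyte marker, had 0 reads in the library labelled shTRIP13 and 11 in the shcon library. The 6 endothelial markers summed to 2.99 FPKM in the library labelled shTRIP13 and 5.67 FPKM in the shcon library. The 8 fibroblast and pericyte markers summed to 34.6 FPKM in the library labelled shTRIP13 and 55.6 FPKM in the shcon library. All 8 had a log2 ratio below 0, some of them on few reads or at nearly equal levels. RGS5, with 50 reads in the library labelled shTRIP13 and 57 in the shcon library, had a ratio of 0.877 (0.588 to 1.31). KDR, the main endothelial marker by level, had 2.85 FPKM in the library labelled shTRIP13 and 4.52 FPKM in the shcon library, and CDH5 had 0 reads in the library labelled shTRIP13 and 6 in the shcon library. COL1A1, a fibrillar collagen, had 27.4 FPKM in the library labelled shTRIP13 and 29.4 FPKM in the shcon library. PDGFRB, a pericyte receptor, had 1.74 FPKM (241 reads) in the library labelled shTRIP13 and 12.4 FPKM (1712 reads) in the shcon library, a ratio of 0.141. The matrix proteoglycan LUM had 2.08 FPKM in the library labelled shTRIP13 and 7.55 FPKM in the shcon library, and DCN had 33 reads in the library labelled shTRIP13 and 386 in the shcon library. Both libraries are of the U87MG line, and the part of these marker genes in the levels of the NF-kB genes was not tested.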

How the data were processed

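RNA was sequenced from 2 libraries, 1 per group, prepared by the NEBNext Ultra kit out of total RNA, per the labels' protocols. The authors deposited FPKM values. HISAT2 2.0.5, featureCounts 1.5.0-p3, edgeR and hg38 appear, without their roles, per the submitters' processing notes. The annotation is not given in the sources used here, and the positions of 58735 genes equalled GENCODE release 29. FPKM times gene length gave whole reads for 100% of values, within 0.01 of a read. The size rule was applied to protein-coding genes whose FPKM averaged 1 or more, with 1 added before log2. Exact Clopper-Pearson, Poisson and conditional odds ratio intervals are limited to counting error, as the reads carry no molecular identifiers and are not independent molecules. All 10 members are described, and lists are named by the 2 lowest and 2 highest tested genes, of which 1 is not reported here. Members and lists were chosen with earlier results of these data known. Promoter windows are RefSeq's (GRCh38.p14). Where a symbol stood on 2 rows, the more abundant row was used. Alternatives were other pseudocounts, scalings, filters and biotypes, and recovered reads in place of FPKM. The calculations were tested on simulated data. Python 3.11.15 ran scipy 1.17.1, pandas 2.3.3, numpy 2.4.6 and matplotlib 3.10.9.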

Additional observations from a re-analysis of the deposited data

How the results depend on the processing

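No paired analysis was possible because there is 1 library in each group. No member reversed its direction under any alternative tried, and no member was at least 2-fold higher under any of them. With a pseudocount of 5, the number of members at least 2-fold lower was 1, NFKBIZ, in place of 4, and the median log2 ratio of the members was -0.44. A larger pseudocount shrinks every log2 ratio. That median ranged from -0.83 to -0.44. Counts over all tested genes moved under more settings. Genes at least 2-fold lower numbered 677 with a pseudocount of 0.1, 180 with 5, 694 from recovered reads, 956 under TPM, 280 at a mean FPKM of 5 or more and 737 over every biotype, in place of 447. Genes at least 2-fold higher numbered 408 with a pseudocount of 0.1, 64 with 5, 417 from recovered reads and 139 with the median ratio set to 1, in place of 232. Of 70 alternative log2 ratios of single members, 44 stayed inside the counting interval. Depth limits REL and NFKBIE most, with 179 and 139 reads in the library labelled shTRIP13.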

Other observations

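The core GGGAATTTCC, which recurred among the members, was also looked up in the promoter windows of all tested genes. Outside the members, 16 tested genes held it, of which 9 had a log2 ratio below 0 and 4 were at least 2-fold lower. Among all tested genes 39.6% were below 0 and 4.19% at least 2-fold lower. The 4 were the chemokines CXCL1, CXCL2, CXCL3 and CXCL6, close paralogs, so they are not independent of each other. All 4 were also on the list of textbook target genes, and CXCL1 and CXCL6 passed the filter only through the shcon library. CXCL2 had 19.7 FPKM in the library labelled shTRIP13 and 54.4 FPKM in the shcon library, and CXCL6 had 0.122 FPKM (6 reads) in the library labelled shTRIP13 and 3.35 FPKM (165 reads) in the shcon library. The opposite end was TNFRSF9, a costimulatory receptor and NF-kB target, with 3.08 FPKM (378 reads) in the library labelled shTRIP13 and 0.465 FPKM (57 reads) in the shcon library, a ratio of 6.63 (5.01 to 8.92). TNFRSF9 passed the filter only through the library labelled shTRIP13. The chemokines and TNFRSF9 were named after their values were seen.

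With the wider kB consensus the difference was small. Of 1481 tested genes with a match, 4.79% were at least 2-fold lower, and of 7088 without one, 3.71%. The median log2 ratio was 0.08 over genes with a match and 0.14 over those without. Of the textbook target genes, 14 of the 28 with a RefSeq window held a match, against 13.3% of all genes with a window.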
